A study of Mus musculus with 12 samples.

Results

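The mitochondrial carrier family was followed through 4 stages of mouse small-intestinal epithelium. Its members were taken as every gene symbol made of Slc25a and a number, which gave 47 of the 23366 gene entries in the count tables. Of these, 44 had enough reads to be tested among 15342 genes, while Slc25a31, Slc25a41 and Slc25a54 stayed at 0 to 7, 0 to 5 and 0 to 3 reads per library and were not tested. The 12 RNA-seq libraries came from 4 groups of 3, all of mixed C57BL/6 CD1 strain. The 2 embryonic groups, E12.5 and E14.5, were live (DAPI−) cells sorted as EpCAM+ CD31− CD45−, with a pool of 20 embryos behind each E12.5 library and a pool size for E14.5 that the sources used here do not give. The adult groups came from 2-month-old (P60) Lgr5EGFP-Cre-ERT males, 1 gut per library. Adult intestinal stem cells (ISC) were the Lgr5-EGFP-high cells, and adult enterocytes (AE) were sorted with the same surface gate as the embryonic cells. The Lgr5 promoter drives the reporter in this line, which is known to be active in only some crypts. No treatment with an agent is given for any group, and neither genotype nor sex is given for the embryos. For each of the 6 embryonic libraries, title and age label name opposite stages, and the direction of the embryonic comparison follows the titles.

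Mitochondrial carriers are small proteins of the inner mitochondrial membrane that let nucleotides, phosphate, carboxylates, amino acids, cofactors and iron pass between cytosol and matrix. Most work as exchangers, so that a substrate enters as another leaves, and several steps are served by closely related genes whose use differs between tissues. In the small intestine they link respiration to the making of citrulline and ornithine, to glutamine use and to the NADH shuttles of the absorptive cell. Levels below are CPM, the counts of a gene per 1000000 counts of its library, scaled by TMM, the trimmed mean of M-values. Fold changes and adjusted p values come from edgeR's quasi-likelihood F test over all 15342 genes. That test gives no standard error, so each SE here is the absolute log2 change divided by the square root of F. A carrier is said to have risen or fallen only where its Benjamini-Hochberg adjusted p was under 0.05.

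Library totals ran from 12587626 to 45190749 counts. Reads listed as not uniquely aligned were 3.06% to 5.96% in E12.5 and ISC and 0 in every E14.5 and AE library, so this difference in the deposited tables cannot be told apart from stage, except between ISC and E12.5 and between AE and E14.5, which are alike in it. E14.5 against E12.5, ISC against E14.5 and AE against ISC all cross this difference. Slc25a11, Slc25a46, Slc25a51 and the import gene Tomm70a rose, fell and rose again over these comparisons. The part of the difference in these values was not tested. Nothing in the labels says whether ISC and AE libraries came from the same guts. The 8 stem cell markers summed to 11000 to 12220 CPM in ISC and to at most 1503 elsewhere. The 12 enterocyte markers summed to 36290, 75020 and 74880 CPM in the 3 AE libraries and to at most 2023 elsewhere. The 14 genes of mesenchyme and smooth muscle summed to 172 to 212 CPM at E12.5, 335 to 413 at E14.5, 6.39 to 10.3 for ISC and 15.1 to 16.8 for AE, and the 10 of goblet, Paneth, endocrine and tuft cells to 9.19 to 10.6, 56.9 to 59.6, 2834 to 4549 and 12230 to 16830. None of these 4 lists has a marker at 0 in all libraries, and their part in the carrier values was not tested. In these bulk samples, fewer cells of a type and less RNA per cell cannot be told apart.

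Several results below turn on closely related genes, so the longest stretch shared by the coding sequences of each of 3 pairs is shown. Only a coding read lying wholly within such a stretch would match both genes exactly. The sequences are from GENCODE M21 transcripts, written 5′ to 3′ on the coding strand, with the shared stretch in capitals and 10 flanking bases on each side. Slc25a4 and Slc25a5, the ADP/ATP carriers, are identical at 77.4% of aligned coding bases. The capitals begin at coding base 322 of both.
Slc25a4: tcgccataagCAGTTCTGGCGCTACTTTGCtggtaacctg
Slc25a5: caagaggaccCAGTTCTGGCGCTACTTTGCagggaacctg
The aspartate/glutamate carriers Slc25a12 and Slc25a13 are identical at 71.9%.
Slc25a12: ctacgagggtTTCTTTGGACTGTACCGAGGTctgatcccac
Slc25a13: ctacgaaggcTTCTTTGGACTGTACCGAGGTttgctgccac
The ATP-Mg/phosphate carriers Slc25a23 and Slc25a25 are identical at 70.3%.
Slc25a23: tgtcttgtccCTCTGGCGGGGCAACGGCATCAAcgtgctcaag
Slc25a25: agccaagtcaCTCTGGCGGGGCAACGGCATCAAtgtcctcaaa
The longest such stretches were 20, 21 and 23 bases, shorter than the 50-base stretches compared next. Over whole transcripts, 21 of the 47 members shared no 50-base stretch with any other gene, among them Slc25a4, Slc25a15, Slc25a22, Slc25a24 and Slc25a45. Slc25a5 shared 33.8% of its stretches with 9 other genes, most with Gm5560, and Slc25a35 shared 25%, most with Rangrf, so their counts are less certain.

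Summed over all 47 members, the family's mean level was 1929 ± 75.0 CPM (SD, n = 3, as for every mean below) at E12.5, 2400 ± 53.6 at E14.5, 2306 ± 103.3 for ISC and 5718 ± 490.9 for AE. The phosphate carrier Slc25a3 and the ADP/ATP carrier Slc25a5 alone made up 28.5%, 34.8%, 40.4% and 46.3% of these sums. Without that pair the remaining members summed to 1379 ± 48.8, 1564 ± 19.1, 1372 ± 42.5 and 3075 ± 342.1 CPM. The sums in AE, 2695 to 3358 CPM, were above those of every other library, which lay between 1340 and 1582. The TMM factors, whose low values raise CPM, were 0.696 to 0.836 in AE and 1.02 to 1.16 in the other libraries. The family sums were not recomputed under another scaling.

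**Figure D1:**
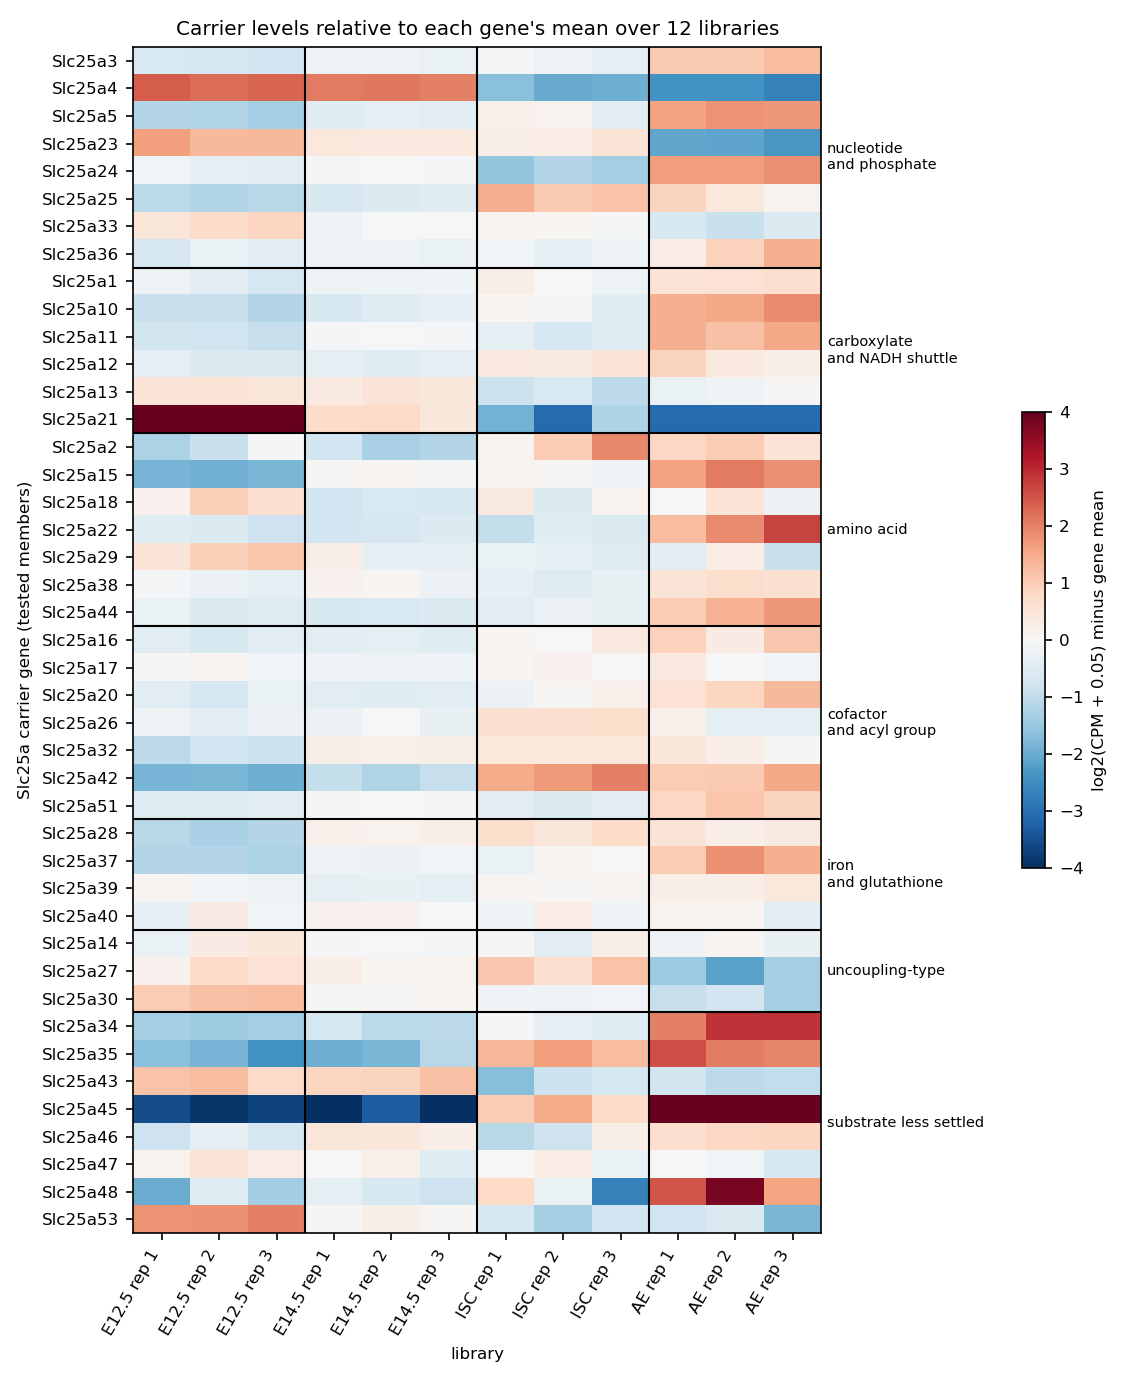
Each row is 1 of 43 tested carriers and each column 1 library, with the colour giving log2(CPM + 0.05) minus the gene's own mean over the 12 libraries, limited to -4 and 4. The rows are ordered by substrate. Slc25a45, Slc25a15, Slc25a22 and Slc25a34 have their highest values in the AE columns, while Slc25a4, Slc25a21 and Slc25a53 are higher in every embryonic column than in any adult one.

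From E12.5 to E14.5, 13 carriers rose, 8 fell and 23 did not pass the test. The 47.7% of carriers called compares with 49.2% of all genes tested, 23.6% higher and 25.6% lower. From E14.5 to ISC, 15 rose, 10 fell and 19 did not pass, 56.8% against 60.7% of all genes (30.2% higher, 30.6% lower). From ISC to AE, 22 rose, 10 fell and 12 did not pass, 72.7% against 67.8% (32.6% higher, 35.2% lower). By a log2 change of at least 1, 5 carriers rose and 5 fell at the first step (9.58% and 13% of all genes) and 5 rose and 6 fell at the second (15.8% and 17.4%). At the last step 15 of the 44 rose and 3 fell by a log2 change of at least 1, where 19.9% and 20.9% of all genes did so. The median log2 change of the 44 at the 3 steps was 0.11, 0.17 and 0.19, and that of all genes -0.02, -0.01 and -0.05. Over longer spans, 21 carriers were higher and 10 lower in ISC than in E12.5 (70.5% of carriers, 68.5% of all genes, of which 33.9% higher and 34.6% lower), 11 and 9 of them by at least 1 (all genes 19.3% and 21.8%). In AE against E14.5, 25 were higher and 9 lower (77.3%, all genes 78.2%, of which 36.7% higher and 41.5% lower), 19 and 6 of them by at least 1 (all genes 24.4% and 28.8%). In AE against E12.5, 27 were higher and 10 lower (84.1%, all genes 82.1%, of which 38.4% higher and 43.7% lower), 25 and 9 of them by at least 1 (all genes 27.8% and 32.5%). The carriers' median log2 change over these spans was 0.27, 0.80 and 1.25, and that of all genes -0.01, -0.12 and -0.15. At the 3 steps the libraries did not overlap for 61.4%, 63.6% and 65.9% of carriers and 70.6%, 72% and 66.3% of all genes. Over the longer spans these shares were 68.2%, 84.1% and 86.4% of carriers and 73.9%, 81.5% and 82.5% of all genes. A lack of overlap was also part of the rule for naming carriers. With upper-quartile scaling, which moves the median of all genes by -0.20 in AE against ISC, the carriers' median there was -0.01, and 21 rose and 12 fell.

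**Figure D2:**
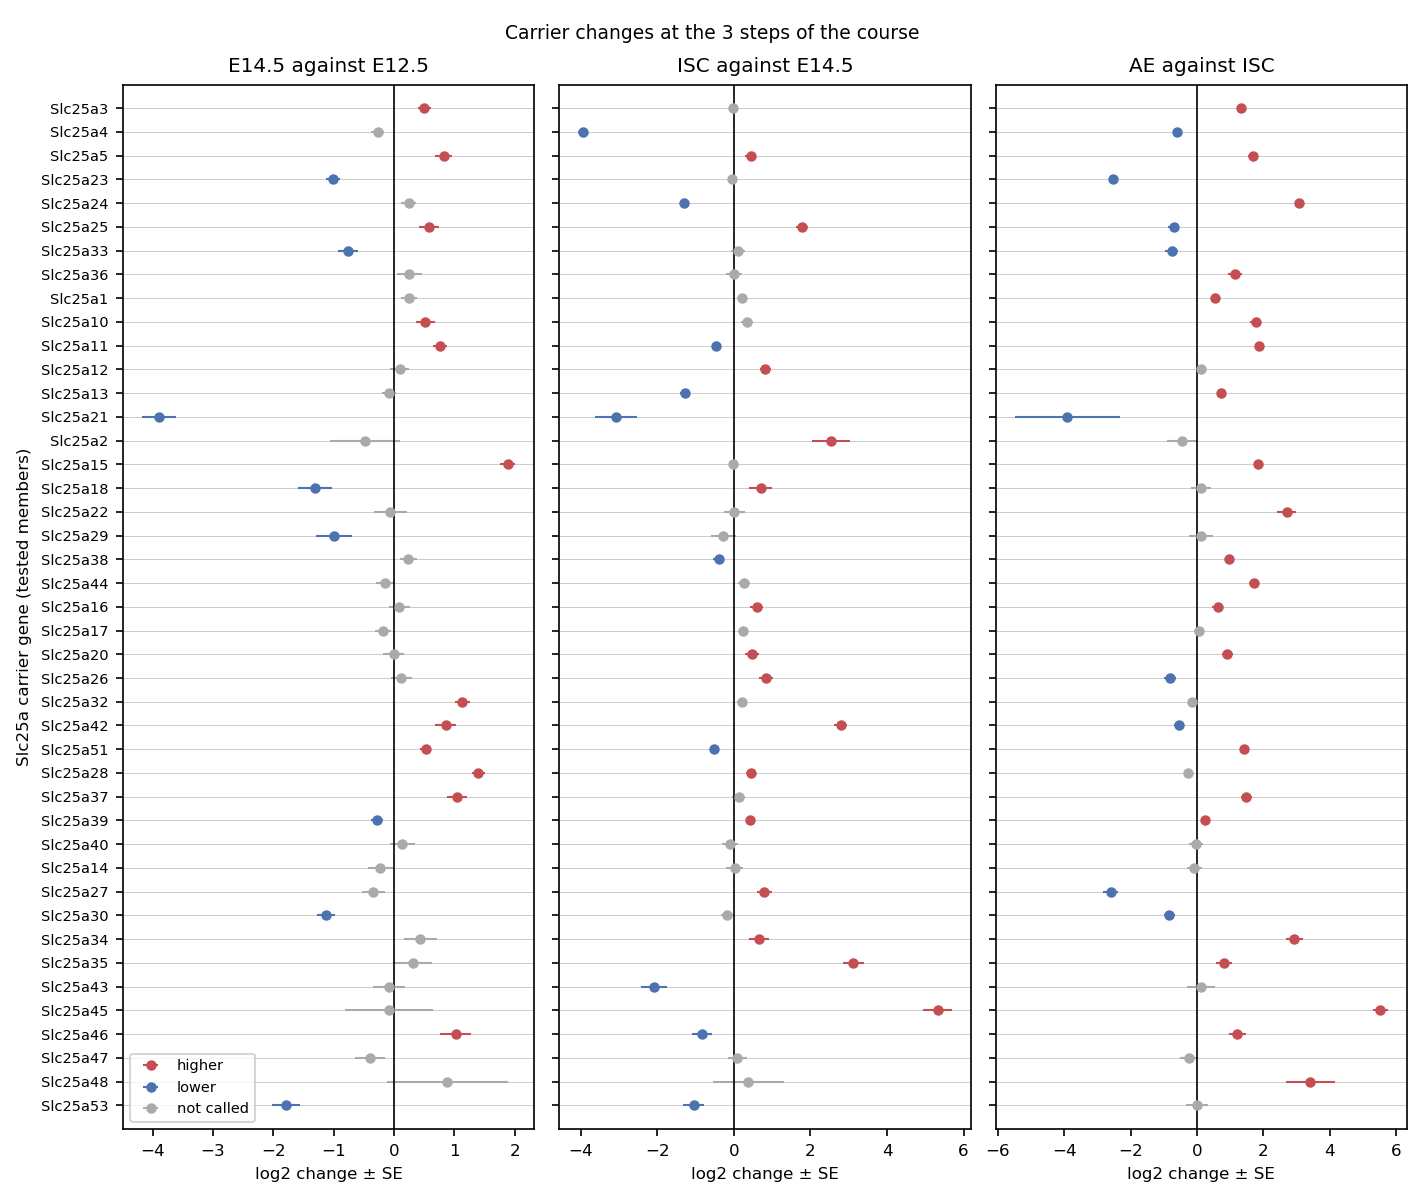
The log2 change of 43 tested carriers, each with its standard error, is shown for E14.5 against E12.5, ISC against E14.5 and AE against ISC, red for higher, blue for lower and grey for not called. The points of the AE against ISC panel lie farthest to the right for Slc25a45, Slc25a48, Slc25a24 and Slc25a34 and farthest to the left for Slc25a21, whose fitted value rests on 4 reads in ISC and 0 in AE.

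Across the course, 40 of the 44 tested carriers differed among the 4 groups, 90.9% against 93.3% of all genes. The other 4 were Slc25a14, Slc25a17, Slc25a40 and Slc25a47. A carrier was called switched to a group where it was higher there than in each group outside it, with a log2 change of at least 1 in each comparison. By this rule 13 carriers (29.5%) were switched to AE, a share that was 13.9% over all genes: Slc25a3, Slc25a5, Slc25a10, Slc25a11, Slc25a15, Slc25a22, Slc25a24, Slc25a34, Slc25a36, Slc25a37, Slc25a44, Slc25a45 and Slc25a48. No carrier was switched to ISC alone, where 3.16% of all genes were. Both adult groups stood above both embryonic groups for 5 carriers (11.4%, all genes 9.18%), which were Slc25a2, Slc25a25, Slc25a35, Slc25a42 and Slc25a45. Both embryonic groups stood above both adult groups for 4 (9.09%, all genes 11.9%), which were Slc25a4, Slc25a21, Slc25a43 and Slc25a53. E12.5 stood above the other 3 groups for 4 (9.09%, all genes 9.05%), which were Slc25a21, Slc25a23, Slc25a30 and Slc25a53, and no carrier was switched to E14.5 alone (all genes 1.55%).

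Of the ADP/ATP carriers, which pass ATP made in the matrix to the cytosol, Slc25a4 had the higher level in E12.5 and Slc25a5 from E14.5 on. The share of Slc25a4 was far lower again in the adult groups. Slc25a4 stood in E12.5 at 334, 294 and 314 CPM, in E14.5 at 261, 269.6 and 249.8, in ISC at 19.3, 15.5 and 16.1 and in AE at 11.9, 11.5 and 9.48. The embryonic libraries did not overlap the adult ones. Slc25a4 was 15.4-fold lower in ISC than in E14.5 (log2 change -3.94 ± 0.12 (SE), adjusted p = 7.97e-12) and 1.53-fold lower again in AE (log2 change -0.61 ± 0.12 (SE), adjusted p = 0.00046), which left AE 28.3-fold below E12.5. Its change from E12.5 to E14.5 had log2 change -0.27 ± 0.11 (SE), adjusted p = 0.0518 and was not called, though 5 of the 13 alternative settings run for this comparison called it. The mesenchyme and smooth muscle sum was also higher in the embryonic libraries, at 172 to 413 CPM, than in the adult ones, at 6.39 to 16.8, and its part in the Slc25a4 values was not tested.

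Slc25a5, the partner gene on the X chromosome, stood in E12.5 at 177, 173 and 156 CPM, in E14.5 at 287, 312 and 292, in ISC at 467, 445 and 299.9 and in AE at 1215, 1399 and 1328. The lowest AE library, at 1215 CPM, was above the highest other library, ISC replicate 1. It rose 1.76-fold by E14.5 (log2 change 0.82 ± 0.15 (SE), adjusted p = 0.000402) and 3.25-fold from ISC to AE (log2 change 1.70 ± 0.15 (SE), adjusted p = 2.22e-07). Between E14.5 and ISC the libraries overlapped, and the call (log2 change 0.44 ± 0.14 (SE), adjusted p = 0.0169) was lost without E14.5 replicate 1 or 3 or ISC replicate 1 or 2, with adjusted p from 0.0541 to 0.0873. Of the counts of the pair, Slc25a4 took 65.1% ± 1.98 (SD, n = 3) at E12.5, 46.7% ± 0.855 at E14.5, 4.14% ± 0.866 for ISC and 0.832% ± 0.132 for AE. Per kilobase of transcript, Slc25a4 was at 173, 153 and 163 CPM per kb in the E12.5 libraries and Slc25a5 at 142, 139 and 126, so the 2 did not overlap. In AE the means per kilobase were 5.70 ± 0.678 for Slc25a4 and 1060 ± 74.8 for Slc25a5, the highest of the family.

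**Figure D3:**
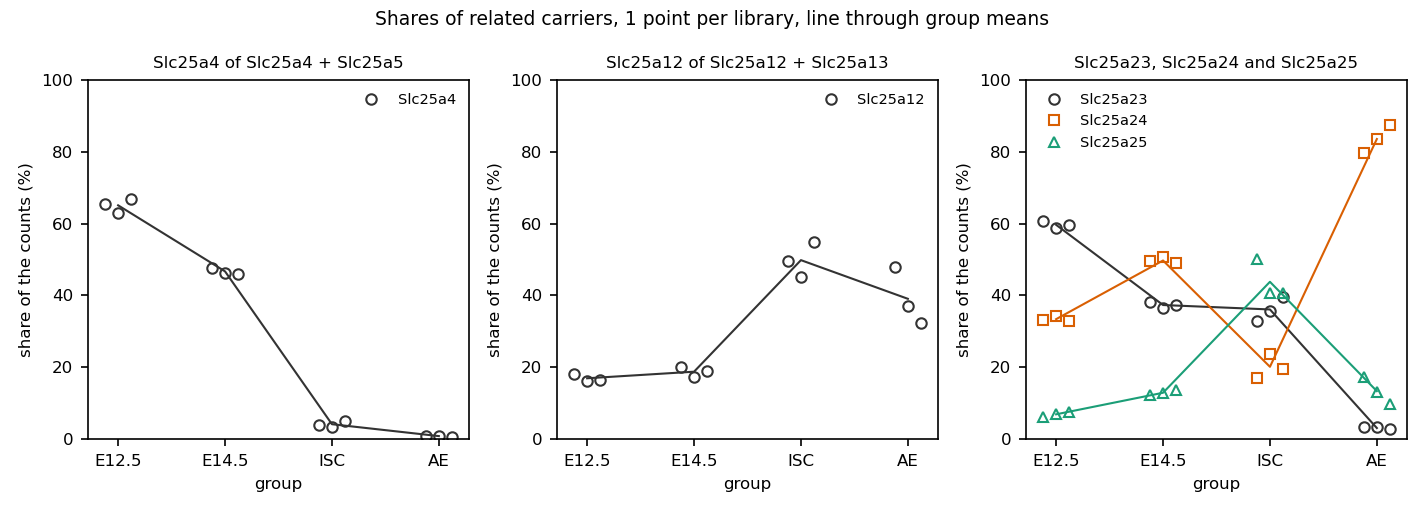
The share of the counts of 2 or 3 related carriers taken by each is plotted in percent for every library, with lines through the group means. Slc25a4 falls from 65.1% to 0.832%, Slc25a12 stands highest in ISC at 49.8%, and the leading ATP-Mg/phosphate carrier is Slc25a23 in E12.5, Slc25a24 in E14.5, Slc25a25 in ISC and Slc25a24 in AE.

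Phosphate enters the matrix for ATP synthesis through Slc25a3, which stood in E12.5 at 401, 377 and 366 CPM, in E14.5 at 534, 565 and 517, in ISC at 578, 540.2 and 475 and in AE at 1265, 1278 and 1445. The AE libraries were above all others and the E14.5 and ISC libraries overlapped. It rose 1.41-fold by E14.5 (log2 change 0.50 ± 0.11 (SE), adjusted p = 0.00181) and 2.5-fold from ISC to AE (log2 change 1.32 ± 0.11 (SE), adjusted p = 1.35e-07). Per kilobase it ranked the first of the 47 in E12.5, E14.5 and ISC and the second in AE.

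The calcium-regulated ATP-Mg/phosphate carriers set the size of the adenine nucleotide pool in the matrix, and each of the 3 had its highest level in a different group. Slc25a23 stood in E12.5 at 170.1, 134 and 133 CPM, in E14.5 at 73.3, 71.3 and 72.2 and in ISC at 65.8, 66.6 and 79.2, with the AE libraries at 10.8 to 12.9. It fell 2.02-fold from E12.5 to E14.5 (log2 change -1.01 ± 0.12 (SE), adjusted p = 1.16e-05) and 5.79-fold from ISC to AE (log2 change -2.53 ± 0.13 (SE), adjusted p = 2.14e-09), and the E14.5 and ISC libraries overlapped. Slc25a24 stood in E12.5 at 93.3, 77.9 and 73.2 CPM, in E14.5 at 95.3, 99.1 and 94.3, in ISC at 34.0, 44.4 and 39.0 and in AE at 318, 316 and 355. Its ISC libraries were the lowest of all 12 and its AE libraries the highest. It fell 2.46-fold from E14.5 to ISC (log2 change -1.30 ± 0.12 (SE), adjusted p = 4.54e-07) and was 8.4-fold higher in AE than in ISC (log2 change 3.07 ± 0.13 (SE), adjusted p = 5.18e-10). Slc25a25 stood in E12.5 at 17.2, 15.8 and 16.9 CPM, in E14.5 at 23.5, 25 and 26.4, in ISC at 100.4, 75.8 and 81.1 and in AE at 68.7, 49.3 and 40.1, highest in ISC with no overlap with AE. It rose 3.44-fold from E14.5 to ISC (log2 change 1.78 ± 0.17 (SE), adjusted p = 5.92e-07) and was 1.62-fold lower in AE than in ISC (log2 change -0.69 ± 0.17 (SE), adjusted p = 0.002). Of the summed counts of the 3, Slc25a23 held 59.7% ± 0.910 in E12.5 and 3.07% ± 0.347 in AE, Slc25a25 held 43.8% ± 5.48 in ISC, and Slc25a24 held 83.6% ± 3.94 in AE.

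The pyrimidine nucleotide carriers Slc25a33 and Slc25a36 feed the matrix with the substrates of mitochondrial DNA and RNA synthesis, and they moved in opposite directions from ISC to AE. Slc25a36 stood in E12.5 at 49.4, 65.2 and 58.3 CPM, in E14.5 at 70.8, 68.2 and 66.3, in ISC at 73.8, 61.6 and 70.8 and in AE at 96.2, 151 and 210.3. The AE libraries lay above the rest but spread from 96.2 to 210.3 CPM, and it was 2.21-fold higher in AE than in ISC (log2 change 1.14 ± 0.21 (SE), adjusted p = 0.000235). Slc25a33 stood in E12.5 at 5.78, 6.88 and 7.45 CPM, in E14.5 at 3.64, 4.18 and 4.04, in ISC at 4.50, 4.36 and 4.001 and in AE at 2.63, 2.21 and 2.74, falling 1.69-fold from E12.5 to E14.5 (log2 change -0.76 ± 0.17 (SE), adjusted p = 0.00197) and 1.69-fold from ISC to AE (log2 change -0.76 ± 0.19 (SE), adjusted p = 0.00288). The E14.5 libraries lay below E12.5 and the AE libraries below ISC, both without overlap. Slc25a33 shared 12.6% of its 50-base stretches with 1 other gene, Gm13068.

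Among the carboxylate carriers and the NADH shuttle, 4 of 6 rose and 1 fell from ISC to AE (all genes 32.6% and 35.2%). Slc25a11, the oxoglutarate/malate carrier of the malate-aspartate shuttle, stood in E12.5 at 39.5, 37.6 and 34.6 CPM, in E14.5 at 61.6, 65.4 and 62.4, in ISC at 49.5, 41.1 and 46.4 and in AE at 173, 146 and 186. It rose by E14.5 (1.7-fold, log2 change 0.76 ± 0.11 (SE), adjusted p = 7.93e-05), was lower in ISC (1.38-fold, log2 change -0.47 ± 0.11 (SE), adjusted p = 0.0023) and was 3.69-fold higher in AE than in ISC (log2 change 1.88 ± 0.12 (SE), adjusted p = 8.07e-09). E12.5 and ISC were the nearest groups, and their libraries did not overlap. Slc25a10, the dicarboxylate carrier, stood in E12.5 at 21.2, 20.9 and 17.4 CPM, in E14.5 at 25.6, 28.0 and 31.8, in ISC at 42.1, 37.6 and 28.4 and in AE at 107, 116 and 147. The AE libraries lay above all others, and AE was 3.42-fold above ISC (log2 change 1.77 ± 0.16 (SE), adjusted p = 3.61e-07), while ISC against E14.5 had adjusted p = 0.082. The call from E12.5 to E14.5 (adjusted p = 0.0166) was lost without replicate 3 of E12.5 or of E14.5, at 0.0734 at most. Slc25a1, which exports citrate for fatty acid synthesis, went from 46.7 ± 7.35 CPM in E12.5 to 94.7 ± 3.77 in AE and rose 1.47-fold from ISC to AE (adjusted p = 0.00181).

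The aspartate/glutamate carriers, which complete the malate-aspartate shuttle, moved against each other between embryo and stem cell. Slc25a12 stood in E12.5 at 13.1, 11.7 and 11.4 CPM, in E14.5 at 13.2, 12.3 and 13.2, in ISC at 22.3, 21.9 and 24.3 and in AE at 31.6, 22.4 and 20.4. Slc25a13, the form known from liver, stood in E12.5 at 59.4, 60.2 and 58.2 CPM, in E14.5 at 52.7, 58.6 and 56.6, in ISC at 22.6, 26.8 and 20.1 and in AE at 34.5, 37.7 and 43.1. From E14.5 to ISC, Slc25a12 rose 1.77-fold (log2 change 0.82 ± 0.15 (SE), adjusted p = 0.000334) and Slc25a13 fell 2.42-fold (log2 change -1.27 ± 0.12 (SE), adjusted p = 6.14e-07), both without overlap. From ISC to AE, Slc25a13 rose 1.66-fold (log2 change 0.73 ± 0.12 (SE), adjusted p = 0.000118) and Slc25a12 did not pass (adjusted p = 0.457). Slc25a12 took 16.9% ± 0.983 of the counts of the pair at E12.5, 18.8% ± 1.31 at E14.5, 49.8% ± 4.89 for ISC and 39.1% ± 7.98 for AE. Its transcript is the longer, at 6.351 kb against 3.121 kb. Per kilobase, Slc25a12 and Slc25a13 were at means of 3.60 and 7.42 CPM per kb in ISC and 3.91 and 12.3 in AE, so Slc25a13 stayed the higher.

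Slc25a21, the oxodicarboxylate carrier of lysine and tryptophan breakdown, had most of its reads in E12.5. It was read 269, 241 and 240 times in the E12.5 libraries, 26, 34 and 12 times in E14.5, 1, 0 and 3 times in ISC and 0 times in each AE library. In CPM these were 8.63, 10.7 and 8.80, then 0.648, 0.664 and 0.527, then 0.0634, 0 and 0.130, so no E12.5 library overlapped any other. It fell 14.9-fold from E12.5 to E14.5 (log2 change -3.90 ± 0.28 (SE), adjusted p = 5.54e-07) and 8.41-fold from E14.5 to ISC (adjusted p = 0.000361), a fold that became 18.8 without ISC replicate 3. Against a floor of 3 counts over the AE group, AE was at least 155-fold lower than E12.5 and at least 10.1-fold lower than E14.5. AE against ISC compared 0 with 4 reads, and its call (adjusted p = 0.0457) was lost in 9 of 12 alternatives, at up to 0.236.

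Of the 7 amino acid carriers, 4 rose from ISC to AE and none fell (all genes 32.6% and 35.2%). Slc25a15, the ornithine/citrulline carrier, stood in E12.5 at 28.4, 27.2 and 28.9 CPM, in E14.5 at 106, 108 and 98.2, in ISC at 110.3, 106 and 92.0 and in AE at 310.1, 432 and 366. The levels formed 3 steps, with E14.5 and ISC overlapping. Slc25a15 rose 3.69-fold by E14.5 (log2 change 1.89 ± 0.12 (SE), adjusted p = 6.57e-08) and 3.59-fold from ISC to AE (log2 change 1.84 ± 0.12 (SE), adjusted p = 1.76e-08), which put AE 13.1-fold above E12.5. Slc25a2, the second ornithine carrier, took at most 1.12% of the counts of the pair on average in any group. It stood in E12.5 at 0.160, 0.222 and 0.440 CPM, in E14.5 at 0.249, 0.156 and 0.176, in ISC at 0.507, 0.981 and 1.87 and in AE at 0.841, 0.980 and 0.685, was read 22 times in all in each embryonic group, and was 5.82-fold higher in ISC than in E14.5 (log2 change 2.54 ± 0.50 (SE), adjusted p = 0.000559). This fold was 3.72 without ISC replicate 3, the highest library (adjusted p = 0.00635).

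Slc25a22, a glutamate carrier, stood in E12.5 at 17.0, 16.3 and 13.5 CPM, in E14.5 at 13.9, 14.8 and 16.3, in ISC at 12.4, 17.0 and 16 and in AE at 55.7, 88.0 and 155. The first 9 libraries lay between 12.4 and 17.0 CPM and the AE libraries between 55.7 and 155.4. AE was 6.54-fold above ISC (log2 change 2.71 ± 0.29 (SE), adjusted p = 1.37e-06). AE replicate 1, with the lowest enterocyte sum, had the lowest value of the 3. Replicates 2 and 3, at 88.0 and 155 CPM, had enterocyte sums of 75020 and 74880 CPM. The part of enterocyte content was not tested. Slc25a18, the second glutamate carrier, stood in E12.5 at 3.18, 5.51 and 4.51 CPM, in E14.5 at 1.65, 1.83 and 1.802, in ISC at 3.61, 1.91 and 3.09 and in AE at 2.80, 4.17 and 2.40. It fell 2.48-fold from E12.5 to E14.5 (log2 change -1.31 ± 0.28 (SE), adjusted p = 0.00152), and its share of the pair was 22% ± 5.44 in E12.5 and 3.61% ± 1.82 in AE. Its call in ISC against E14.5 (adjusted p = 0.0499) was lost in 11 of 13 alternatives, at up to 0.181. Slc25a44, which carries branched-chain amino acids, stood in E12.5 at 31.2, 25.1 and 26.4 CPM, in E14.5 at 24.2, 24.96 and 25.8, in ISC at 27.8, 32.2 and 30.7 and in AE at 76.8, 98.8 and 126. All embryonic and ISC libraries lay between 24.2 and 32.2 CPM, and AE was 3.31-fold above ISC (log2 change 1.73 ± 0.16 (SE), adjusted p = 3.22e-07). Slc25a38, a glycine carrier of haem synthesis, was at 20.0 ± 1.35 CPM in AE and at 10.1 ± 0.883 in ISC (adjusted p = 4.75e-05).

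The 8 carriers of cofactors and acyl groups split evenly from ISC to AE, with 3 higher and 3 lower (all genes 32.6% and 35.2%). Slc25a42, which brings coenzyme A into the matrix, stood in E12.5 at 4.11, 4.17 and 3.89 CPM, in E14.5 at 7.70, 6.48 and 7.87, in ISC at 42.0, 48.9 and 61.0 and in AE at 30.4, 31.5 and 43.1. The lowest adult library was above the highest embryonic one. It rose 1.8-fold by E14.5 (log2 change 0.85 ± 0.18 (SE), adjusted p = 0.0013) and 6.92-fold from E14.5 to ISC (log2 change 2.79 ± 0.17 (SE), adjusted p = 6.3e-09). ISC and AE overlapped, and the call between them (adjusted p = 0.00843) was lost without ISC replicate 3 (0.065). Slc25a51, the NAD carrier, stood in E12.5 at 91.7, 92.6 and 97.6 CPM, in E14.5 at 136, 133 and 136, in ISC at 98.6, 88.6 and 96.3 and in AE at 233, 282 and 243. E12.5 and ISC, the groups with reads listed as not uniquely aligned, overlapped and lay lowest. It rose 1.44-fold by E14.5 (log2 change 0.52 ± 0.10 (SE), adjusted p = 0.000485), was 1.43-fold lower in ISC than in E14.5 (log2 change -0.51 ± 0.10 (SE), adjusted p = 0.000346) and rose 2.67-fold from ISC to AE (log2 change 1.42 ± 0.10 (SE), adjusted p = 2.29e-08).

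Slc25a32, which brings folate and flavin into the matrix, had means of 11.1 ± 1.01, 24.3 ± 0.407, 28.1 ± 0.0406 and 25.1 ± 3.81 CPM in the course from E12.5 to AE. Its rise was at the first step (2.19-fold, log2 change 1.13 ± 0.13 (SE), adjusted p = 7.41e-06). Slc25a20, the carnitine/acylcarnitine carrier of fatty acid oxidation, was at 60.1 ± 9.28 CPM in ISC and at 113.7 ± 29.8 in AE, 1.89-fold higher (adjusted p = 0.000304). Slc25a26, the carrier of S-adenosylmethionine, was highest in ISC at 12.7 ± 0.375 CPM, above E14.5 (adjusted p = 0.000891) and above AE (adjusted p = 0.00138). Slc25a16, linked to coenzyme A, rose at both adult steps (adjusted p = 0.00645 and 0.00444) with ISC and AE libraries that overlapped. Slc25a17, the peroxisomal member of the group, stayed at means of 23.8 to 28.9 CPM and did not differ among the 4 groups by the test.

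The mitoferrins bring iron into the matrix for haem and iron-sulfur clusters. Slc25a37, the form known from red cell precursors, stood in E12.5 at 63.3, 64.3 and 59.2 CPM, in E14.5 at 129, 124 and 133, in ISC at 120.1, 157 and 143 and in AE at 289, 511 and 385. It rose 2.06-fold by E14.5 (log2 change 1.05 ± 0.17 (SE), adjusted p = 0.000156) and 2.82-fold from ISC to AE (adjusted p = 2.41e-06). The AE libraries were above all others, and the E14.5 and ISC libraries overlapped. The 10 red cell markers summed to 18.8 to 31.5 CPM in E12.5 and to 1.96 to 3.43 in AE, with Hba-a1, Hba-a2, Hbb-b1 and Hbb-b2 at 0 reads in all 12 libraries. Most of that sum was Alas2, the haem synthesis enzyme of red cells, whose mean CPM was 23.5 at E12.5, 7.45 at E14.5, 11.2 for ISC and 2.77 for AE, and the part of red cells in the Slc25a37 values was not tested. Slc25a28, the broadly expressed mitoferrin, stood in E12.5 at 17.8, 15.5 and 17.1 CPM, in E14.5 at 44.6, 42.8 and 45.6, in ISC at 62.4, 53.3 and 64.4 and in AE at 55.6, 46.0 and 49.2. It rose 2.63-fold by E14.5 (log2 change 1.40 ± 0.11 (SE), adjusted p = 3.9e-07) and 1.35-fold from E14.5 to ISC (log2 change 0.44 ± 0.11 (SE), adjusted p = 0.00331), without overlap at either step. Its value in AE against ISC was -0.25 on the log2 scale with adjusted p = 0.0557, which 4 of 13 alternatives called. Slc25a37 took 69.8% ± 4.45 of the counts of the pair in ISC and 88.1% ± 3.96 in AE. Per kilobase, Slc25a37 and Slc25a28 were at means of 33.55 and 39.11 CPM per kb in ISC and 94.67 and 32.75 in AE.

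Slc25a39 and Slc25a40 bring glutathione into the matrix. Slc25a39 stood in E12.5 at 78.0, 67.9 and 63.9 CPM, in E14.5 at 57.0, 59.0 and 56.2, in ISC at 77.9, 74.5 and 79.3 and in AE at 88.4, 87.5 and 98.0. It rose 1.35-fold from E14.5 to ISC (log2 change 0.43 ± 0.10 (SE), adjusted p = 0.00182), while its calls at the other 2 steps (adjusted p = 0.0273 and 0.0441) were lost in 6 and 7 of 13 alternatives, at up to 0.14 and 0.733. Slc25a40 stood in E12.5 at 6.19, 9.99 and 7.37 CPM, in E14.5 at 8.90, 8.92 and 7.95, in ISC at 7.10, 9.86 and 7.04 and in AE at 8.76, 8.58 and 5.83, with all groups overlapping and no difference called. Slc25a39 held 87.0% to 92.1% of the counts of the pair as group means.

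The uncoupling-type carriers, relatives of the proton-leak proteins, were lower in AE than in ISC in 2 of 3 cases, as were 35.2% of all genes. Slc25a27 stood in E12.5 at 13.1, 19.7 and 17.4 CPM, in E14.5 at 13.9, 12.6 and 12.96, in ISC at 24.5, 18.5 and 25.9 and in AE at 4.17, 2.61 and 4.57. The highest AE library was below the lowest of the other 9. It was 1.74-fold higher in ISC than in E14.5 (log2 change 0.80 ± 0.19 (SE), adjusted p = 0.00231) and 6.05-fold lower in AE than in ISC (log2 change -2.60 ± 0.22 (SE), adjusted p = 1.55e-07). Slc25a30 stood in E12.5 at 13.4, 14.9 and 15.7 CPM, in E14.5 at 6.23, 6.79 and 7.03, in ISC at 5.96, 5.77 and 6.09 and in AE at 3.43, 3.84 and 2.63, falling 2.19-fold by E14.5 (log2 change -1.13 ± 0.15 (SE), adjusted p = 2.85e-05) and 1.77-fold from ISC to AE (log2 change -0.83 ± 0.17 (SE), adjusted p = 0.000589). The E12.5 libraries lay above all others. Slc25a14 stayed at means of 6.74 to 8.29 CPM with no difference called. The family's uncoupling protein under another symbol, Ucp2, had means of 185, 166, 685 and 1116 CPM over the 4 groups, 4.12-fold higher in ISC than in E14.5 (adjusted p = 7.98e-09) and 1.63-fold higher in AE than in ISC (adjusted p = 0.000179).

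The members whose substrates are less settled held the largest called rise of the family at any step. Slc25a45, reported to carry methylated basic amino acids, was read 4, 2 and 3 times in the E12.5 libraries, 3, 8 and 1 times in E14.5, 64, 104 and 78 times in ISC and 4442, 2308 and 2299 times in AE. In CPM it stood in E12.5 at 0.128, 0.0888 and 0.110 CPM, in E14.5 at 0.0748, 0.156 and 0.0440, in ISC at 4.06, 5.67 and 3.39 and in AE at 156, 188 and 263. The 4 groups fell into 3 separate levels, with the embryonic libraries overlapping (adjusted p = 0.934 between them). ISC was 39.9-fold above E14.5 (log2 change 5.32 ± 0.37 (SE), adjusted p = 2.51e-08), a fold of 63.1 without E14.5 replicate 2, and AE was 46.4-fold above ISC (log2 change 5.54 ± 0.24 (SE), adjusted p = 5.81e-10). Per kilobase Slc25a45 ranked 46 of the 47 members in E14.5 and 7 in AE.

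Slc25a34 and Slc25a35, relatives of the oxaloacetate carrier of yeast, both reached their highest level in AE. Slc25a34 stood in E12.5 at 1.09, 1.02 and 1.06 CPM, in E14.5 at 1.69, 1.29 and 1.32, in ISC at 2.66, 2.23 and 2.00 and in AE at 11.5, 20.8 and 20.9, and AE was 7.68-fold above ISC (log2 change 2.94 ± 0.25 (SE), adjusted p = 1.7e-07). Its call in ISC against E14.5 (adjusted p = 0.0417) was lost in 10 of 13 alternatives, at up to 0.138. Slc25a35 stood in E12.5 at 1.03, 0.888 and 0.587 CPM, in E14.5 at 0.822, 0.898 and 1.54, in ISC at 8.49, 10.8 and 7.92 and in AE at 20.4, 14.0 and 13.2. Its change was at the step before, 8.69-fold from E14.5 to ISC (log2 change 3.12 ± 0.28 (SE), adjusted p = 2.85e-07), followed by 1.77-fold from ISC to AE (log2 change 0.82 ± 0.24 (SE), adjusted p = 0.0074). The adult libraries of both lay above all embryonic ones. Slc25a48, a reported choline carrier, stood in E12.5 at 0.0321, 0.178 and 0.0734 CPM, in E14.5 at 0.199, 0.156 and 0.132, in ISC at 0.507, 0.218 and 0 and in AE at 1.79, 4.41 and 0.914, with no overlap between AE and the rest, and was 10.7-fold higher in AE than in ISC (log2 change 3.42 ± 0.74 (SE), adjusted p = 0.000973). That fold ranged from 6.66 without AE replicate 2 to 23.0 without ISC replicate 1.

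**Figure D4:**
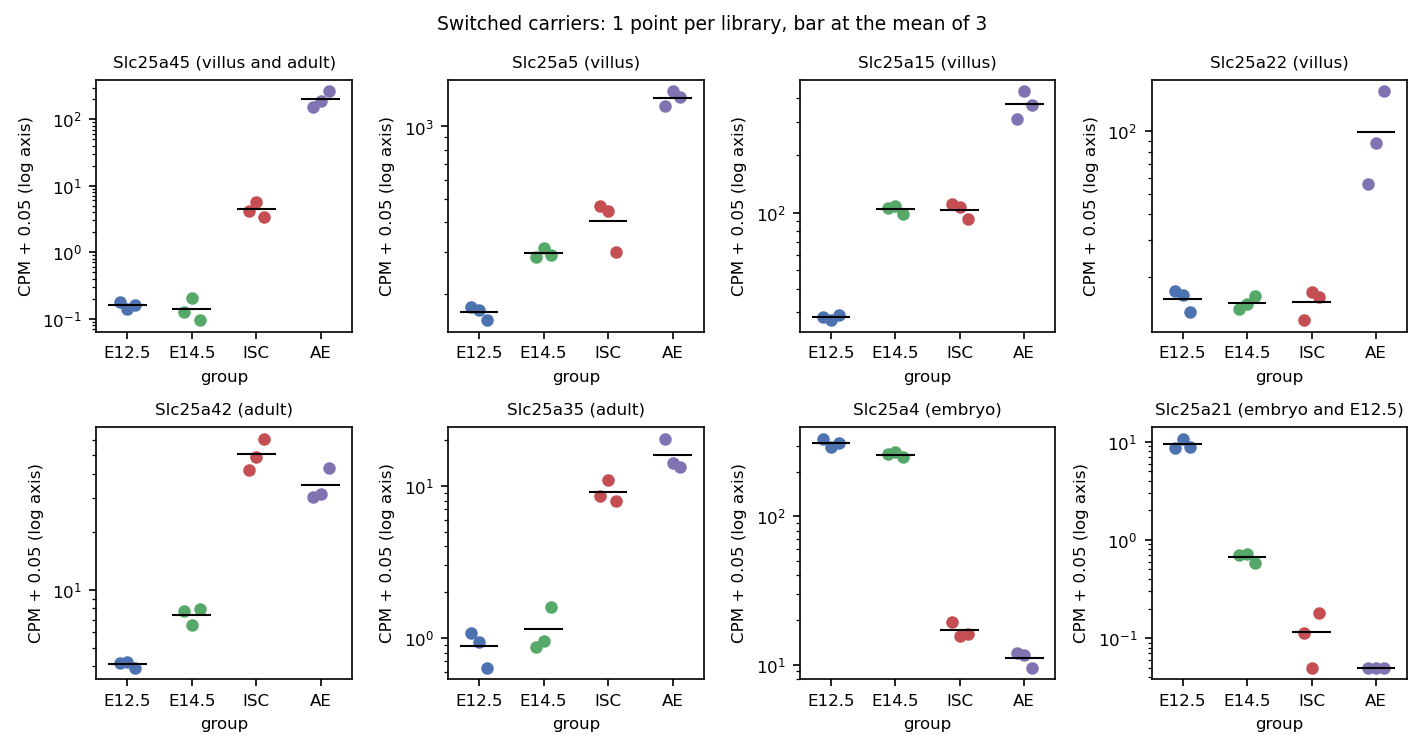
Each panel gives CPM + 0.05 on a log axis for 1 switched carrier, with 1 point per library and a bar at the mean of 3. Slc25a45 rises by 39.9-fold and then 46.4-fold at the adult steps, Slc25a22 rises in AE alone, Slc25a42 and Slc25a35 rise in ISC, and Slc25a4 and Slc25a21 fall.

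Slc25a53 and Slc25a43, whose substrates are not settled, were higher in the embryo. Slc25a53 stood in E12.5 at 6.13, 6.26 and 7.12 CPM, in E14.5 at 1.79, 2.03 and 1.802, in ISC at 1.08, 0.654 and 1.00 and in AE at 0.981, 1.14 and 0.457. It fell 3.45-fold by E14.5 (log2 change -1.79 ± 0.23 (SE), adjusted p = 2.74e-05) and 2.06-fold from E14.5 to ISC (log2 change -1.04 ± 0.27 (SE), adjusted p = 0.00437), without overlap at either step. Slc25a43 stood in E12.5 at 1.67, 1.78 and 1.28 CPM, in E14.5 at 1.37, 1.41 and 1.71, in ISC at 0.190, 0.381 and 0.435 and in AE at 0.420, 0.327 and 0.343. ISC was 4.25-fold below E14.5 (log2 change -2.09 ± 0.34 (SE), adjusted p = 0.000105) with no overlap between embryonic and adult libraries. Slc25a43 was read only 3, 7 and 10 times in the ISC libraries and 12, 4 and 3 times in AE. Slc25a46, an outer-membrane relative that acts in mitochondrial shape, stood in E12.5 at 44.3, 62.2 and 49.2 CPM, in E14.5 at 111, 109 and 95.4, in ISC at 36.6, 44.2 and 94.5 and in AE at 127, 140.2 and 142. It rose 2.02-fold by E14.5 (log2 change 1.02 ± 0.26 (SE), adjusted p = 0.00542) and 2.33-fold from ISC to AE (log2 change 1.22 ± 0.26 (SE), adjusted p = 0.00093). ISC replicate 3 stood apart from the other ISC libraries, and the fall from E14.5 to ISC (adjusted p = 0.0125) was lost without ISC replicate 1 or 2, at 0.0531 and 0.0611. Slc25a47, known from liver, stayed at means of 2.16 to 3.24 CPM with no difference called. The remaining amino acid carrier, Slc25a29, had means of 1.17 to 2.82 CPM, and its fall from E12.5 to E14.5 (adjusted p = 0.0123) was lost in 3 of 13 alternatives, at up to 0.0653.

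Genes that work beside the carriers were described from lists by their counts at the same 3 steps. Of all genes, 23.6% rose and 25.6% fell at the first step, 30.2% and 30.6% at the second, and 32.6% and 35.2% at the last. Of 38 respiratory chain genes tested, 35 rose and 0 fell from E12.5 to E14.5, 9 rose and 1 fell from E14.5 to ISC, and 37 rose and 0 fell from ISC to AE, with medians of 0.91, 0.18 and 1.26 on the log2 scale. The 44 carriers, as given above, moved both ways at each of these steps, with 22 higher and 10 lower at the last. Of 11 genes that import carriers into the inner membrane, 7 rose by E14.5, 4 fell and 1 rose from E14.5 to ISC, and 5 rose and 1 fell from ISC to AE. Tomm70a, the receptor that hands carriers to the outer-membrane pore, rose 1.65-fold by E14.5 (adjusted p = 0.000107), fell from E14.5 to ISC (log2 change -0.54, adjusted p = 0.000733) and rose 1.33-fold from ISC to AE (adjusted p = 0.00455). Of 13 other solute transport genes of mitochondria, 9 rose and 3 fell from ISC to AE, with Vdac2 of the outer membrane 2.8-fold higher (adjusted p = 2.78e-07).

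The enzymes of urea, ornithine and proline metabolism exchange substrates with Slc25a15 and Slc25a2. By E14.5, 6 of these 11 rose and 2 fell, where 23.6% of all genes rose and 25.6% fell. Cps1, which makes carbamoyl phosphate, stood at means of 247 CPM in E12.5 and 3201 in E14.5, 12.9-fold higher (adjusted p = 1.15e-07), and was lower in AE than in ISC (log2 change -1.25, adjusted p = 0.000315). Oat, ornithine aminotransferase, was 4.87-fold higher in E14.5 than in E12.5 (adjusted p = 1.41e-07). From ISC to AE, 32.6% of all genes rose and 35.2% fell. Of 9 enzymes of glutamine use and the shuttles, 7 rose and 1 fell at this step, with Mdh2, the matrix malate dehydrogenase, 6.21-fold higher (adjusted p = 1.89e-09). Of 8 enzymes of citrate, acyl and carnitine metabolism, 4 rose and 3 fell at that step, with Cs, citrate synthase, 3.42-fold higher. Fasn, next in level on this list, had means of 739, 640, 220 and 154 CPM from E12.5 to AE. Acly had means of 341, 306, 129 and 91.1 CPM. Of 9 enzymes of iron, haem and one-carbon metabolism, 2 rose and 6 fell from ISC to AE. Shmt2 and Mthfd1l, of mitochondrial folate metabolism, were both 2.58-fold lower in AE than in ISC (adjusted p = 6.64e-06 and 1.19e-06), and Alas1, the first enzyme of haem synthesis, was 3.29-fold higher (adjusted p = 4.17e-08).

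Promoter sequences from RefSeq on GRCm38.p6, from 250 bases before to 50 after the start, were found for 36 of the 47 members, 46 promoters in all. The part before the start is shown for 3 carriers that moved apart, the ADP/ATP pair and Slc25a45, with capitals on the GC box GGGCGG on either strand. Slc25a4 lies at chr8:46211063-46211312 on the minus strand, Slc25a5 at chrX:36795347-36795596 and Slc25a45 at chr19:5877572-5877821, both on the plus strand.
Slc25a4: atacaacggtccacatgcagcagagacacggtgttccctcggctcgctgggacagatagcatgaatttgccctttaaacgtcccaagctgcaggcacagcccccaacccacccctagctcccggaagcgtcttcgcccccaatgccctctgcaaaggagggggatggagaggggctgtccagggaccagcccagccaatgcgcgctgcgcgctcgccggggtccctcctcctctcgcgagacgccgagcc
Slc25a5: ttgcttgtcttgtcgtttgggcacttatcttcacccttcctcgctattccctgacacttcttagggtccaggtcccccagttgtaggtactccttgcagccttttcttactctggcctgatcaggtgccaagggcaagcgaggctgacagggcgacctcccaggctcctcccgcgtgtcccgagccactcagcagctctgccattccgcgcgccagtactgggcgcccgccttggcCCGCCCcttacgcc
Slc25a45: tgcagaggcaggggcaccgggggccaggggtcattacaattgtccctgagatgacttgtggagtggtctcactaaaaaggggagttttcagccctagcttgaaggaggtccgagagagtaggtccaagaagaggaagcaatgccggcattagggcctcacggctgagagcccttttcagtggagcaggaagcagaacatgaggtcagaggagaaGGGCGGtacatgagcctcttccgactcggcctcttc
The GC box begins at base -14 for Slc25a5 and -36 for Slc25a45, and for Slc25a4 its match lies after the start, at base 29. Searching both strands, GGGCGG was found in 82.6% of the 46 member promoters and in 35.7% of all 32851. The E-box CACGTG was found in 17.4% and 7.15%, and TATAAA in 4.35% and 13.6%. By gene, these 3 motifs were found in 30, 7 and 2 of the 36 members with a promoter. Windows of the same gene can overlap, as for Slc25a14 and Slc25a23, so a site can count more than once in the shares of promoters. The palindromic NRF1 motif, CAAAGTCCA (HNF4) and TCAAGGTCA (estrogen-related receptors) had no match in these windows of the members and were in 0.971%, 0.475% and 0.423% of all promoters. The median GC content was 59.4% in member promoters and 52.7% in all.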

How the data were processed

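Each library has 1 deposited table of counts, whole reads per gene symbol with no normalisation by the authors. Per the submitters' processing notes, the tools were bcl2fastq (1.8.4), STAR (2.3.1z13), SAMtools (1.2), HTSeq (0.6.1p1) and DESeq2 (1.6.3), with the mm9 build. What each did, the annotation used and whether counting used strand are not given in the sources at hand, which leaves reads of overlapping or antisense genes inseparable. RNA was amplified with an Ovation kit before library preparation, per the labels' protocols. The 5 closing entries that name no gene stayed out of library sizes and tests. Between 33.4% and 58.1% of listed reads fell outside genes.

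Counts were analysed with edgeR 4.0.16 in R 4.3.3: filtering by expression kept 15342 genes, TMM scaled the libraries, and glmQLFit and glmQLFTest were fitted to all 12 libraries with 1 coefficient per group and Benjamini-Hochberg adjustment at 0.05. CPM use the TMM-scaled totals. Values per kilobase use the longest coding transcript of GENCODE M21, and coordinates are given only for the RefSeq promoter sequences, on GRCm38.p6, since the counts were made on mm9. The fit was tested on simulated counts, where 50 genes changed at each fold and all others were equal over the 4 groups. Each gene's spread was set alike in all groups. For AE against ISC, 22% of genes changed 1.5-fold, 64% of those changed 2-fold and 92% of those changed 4-fold were called. False calls made up 6.08% of calls in that simulation and 4% to 8.39% over the 6 comparisons. In the data 67.8% of genes were called for AE against ISC, so these simulated shares need not hold there. With 3 replicates a group, p values set a difference against the spread between these libraries, estimated for each gene over all 4 groups together. That spread was unequal: chi-square per degree of freedom between replicates was 3.38 to 9.7 in E14.5 and 26.6 to 138 in AE. With only the E12.5 and E14.5 libraries, edgeR also called Slc25a1, Slc25a24 and Slc25a36 between them (adjusted p = 0.012, 0.00596 and 0.0134).

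Groups and replicate numbers follow the titles. The carriers and lists were chosen with earlier results of these data known. Named with values in every library were the carriers in a switch class, the 20 with the largest called log2 change of at least 1 at a step with no overlap and a higher group of 5 CPM or more, and the members of the related pairs. Up to 3 genes of each other list, those with the highest mean CPM, could be named. The values of 1 tested carrier are not reported here.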

Additional observations from a re-analysis of the deposited data

How the results depend on the processing

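The 19 counts of carriers were recomputed under 7 alternatives: relative log expression scaling, upper-quartile scaling, DESeq2 1.42.0 with its size factors, limma-voom (limma 3.58.1), no filter on low counts, a replicate block, and only the libraries of the 2 groups compared. Counts over all groups were also recomputed without each of the 12 libraries in turn, and could not be had from 2 groups alone, which makes 18 settings. Counts for a comparison of 2 groups were recomputed without each of their 6 libraries, which makes 13. All 282 alternative values lay within 1.5 times the reported ones. The 13 AE-switched carriers became 12 to 14, both over the alternatives and without a library. The 4 embryo-switched carriers stayed 4 over the alternatives and were 3 to 4 without a library, the 5 adult-switched were 4 to 5, and the 4 E12.5-switched were 3 to 5. The 22 carriers higher in AE than in ISC were 21 to 22, and the 15 higher in ISC than in E14.5 were 11 to 16.

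Same-numbered libraries of different groups did not deviate together, with correlations of -0.08 to 0.08, so the replicate numbers were not taken to pair samples. With the replicate block, 21 carriers were higher in AE than in ISC, 13 higher in ISC than in E14.5, and 5 were E12.5-switched. Of 180 called carrier changes none reversed, 161 were never lost and 19 were lost under at least 1 alternative. Besides those given with their results, they include Slc25a11 in ISC against E12.5 (lost in 7, adjusted p up to 0.123), Slc25a18 in AE against E14.5 (3, 0.104), Slc25a2 in AE against E12.5 (without E12.5 replicate 1, 0.0546), Slc25a20 in ISC against E12.5 and E14.5 (6 and 7, 0.119 and 0.142), Slc25a27 in ISC against E12.5 (8, 0.187), Slc25a38 in ISC against E14.5 (4, 0.139) and Slc25a39 in AE against E12.5 (upper-quartile scaling, 0.253). The cause was not tested. Of the 84 changes not called, 17 were called under at least 1 alternative. Upper-quartile scaling moved the median of all genes by -0.20, -0.24 and -0.26 in AE against ISC, E14.5 and E12.5. Precision is limited by 3 libraries a group and, for Slc25a2, Slc25a21, Slc25a43 and Slc25a48, by few reads. The same holds for Slc25a45 in the embryonic groups.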
